A study of Mus musculus with 10 samples.

Results

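The transcriptomes of OP9 stromal cells were examined for 44 genes of the mitotic spindle, the spindle checkpoint and cytokinesis. These genes were chosen by name, with earlier results of these data known, and all 44 were found among the 26888 genes measured. Of them, 43 were listed under their own symbol, and *Cdk1* was found by its identifier (ENSMUSG00000019942) because it was listed as *Cdc2a*.

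Cdk1 bound to A- and B-type cyclins drives cells into mitosis. Aurora and Polo-like kinases, kinesin motors and kinetochore complexes then build the spindle and attach chromosomes to it, and the spindle checkpoint restrains the anaphase-promoting complex/cyclosome (APC/C) until every chromosome is attached. Most of the transcripts involved accumulate late in the cell cycle, so that they are abundant in dividing and scarce in resting cell populations.

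All libraries were made from OP9, a line of calvaria stroma from (C57BL/6xC3H)F2-op/op mice that the labels call foetal and the paper newborn; the *op* mutation inactivates *Csf1*, the gene for the cytokine M-CSF. All cells thus share 1 mutant background. The study asked how the culture of OP9 cells as reaggregates changes their transcriptome. For 6 libraries, cells were dispersed, reaggregated and kept for 48 h on nitrocellulose filters at the interface of liquid and gas, and 4 libraries came from flat cultures submersed in medium. Before RNA extraction reaggregates were dissociated with collagenase and dispase, a step the Methods give for reaggregates alone. Reaggregates 2, 4 and 6 were grown with IL-3, at a dose printed in the Methods as 200 µg/µl, a unit that could not be checked, and reaggregates 1, 3 and 5 without it. The cells of flat cultures 2 and 4 carry the label de Bruijn, whereas flat cultures 1 and 3 and the 6 reaggregates carry no such label. The Methods name the Medvinsky group as the only other source of flat cultures, which leaves it for flat cultures 1 and 3, and name none for the reaggregates. Nothing states that libraries of a group were made from independent cultures, so p-values measure only the spread between these libraries. The Methods compare all reaggregates with all flat cultures, on the ground that IL-3 left transcription unchanged. They add that the cell source brought as much variance as passage number, which is not labelled.

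Expression was given in RPM, a read count scaled to all reads on genes of the library. If the value seen most often above 0 stands for 1 read, the libraries held between 7.35 and 9.43 M reads on genes. At this depth 3 reads, taken as the smallest amount a library can show, corresponded to between 0.318 and 0.408 RPM, a limit set by counting alone. Every one of the 44 genes exceeded it in all 10 libraries, and the lowest single value was 2.05 RPM, for *Spc24* in reaggregate 4. Fold changes are differences in log2(RPM + 0.5), reaggregates minus flat cultures. A gene counted as up- or down-regulated when its level differed 2-fold or more and its Benjamini-Hochberg adjusted p did not exceed 0.05, in a limma fit over all 16933 genes above 0.5 RPM in at least 1 library.

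Several libraries stood apart from others of their group. Across genes, which are not independent replicates, reaggregates 1 and 2, 3 and 4, and 5 and 6 resembled each other, with a Pearson's r between 0.994 and 0.995, against 0.961 to 0.980 for the 12 other pairs of reaggregates. Each of these pairs holds 1 culture with and 1 without IL-3. Among the flat cultures, those labelled as de Bruijn cells differed from the other 2 in genes that were all but absent on one side. By thresholds chosen after the values were seen, 25 genes exceeded 5 RPM in both de Bruijn cultures and stayed below 0.5 RPM in the other 8 libraries, and 34 genes showed the opposite. In contrast, 0 genes exceeded 5 RPM in flat cultures 1 and 3 while staying below 0.5 RPM in the de Bruijn cultures and the reaggregates, and 0 genes showed the opposite of that. Only the counts, 25 and 34 against 0 and 0, describe the libraries. The thresholds themselves place the 6 reaggregates with flat cultures 1 and 3 in these 59 genes. *Cdkn2a*, the locus of the cell cycle inhibitors p16 and p19, was one of them, at 36.3 and 37.9 RPM in flat cultures 2 and 4 and at or near 0 in the other 8 libraries. *Tgfa*, which encodes a growth factor, was an opposite case, at 23.3 and 58.2 RPM in flat cultures 1 and 3, between 34.2 and 41.9 RPM in the reaggregates, and listed at 0 in flat cultures 2 and 4. The 25 genes also held 4 that lie on the Y chromosome, *Ddx3y*, *Uty*, *Eif2s3y* and *Kdm5d*. None of the 44 mitotic genes was among these 59 genes. In these 59 genes, the 4 on the Y chromosome among them, the de Bruijn cultures differed from all 6 reaggregates. In this respect they are not matched controls of the reaggregates, and the labels do not say why. Results are therefore given against all 4 flat cultures, and also against flat cultures 1 and 3 and against the de Bruijn cultures alone.

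Flat culture 3 also stood apart in immediate early and stress genes. The summed level of 10 such genes was 2611 RPM in flat culture 3, between 408 and 614 RPM in the other flat cultures, and between 1838 and 2359 RPM in the reaggregates. Of these 10 genes 7 were up-regulated in reaggregates (7.32% of all genes tested), with *Fosb* (log2 fold change 4.19) and *Atf3* (4.08) changed most. The most abundant was *Egr1*, and none of the 10 was listed at 0 in any library. Their part in the results below was not tested, nor was that of the enzymes used on reaggregates.

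Mitotic genes were lower in reaggregates than in flat cultures across all their roles. Of the 44 genes, 42 were down-regulated and 0 up-regulated, where 6.53% of all genes tested were down-regulated and 7.32% up-regulated. The 44 were chosen with earlier results of these data known, so these counts describe the list and are not an independent test. All 44 had a lower mean log2 value in reaggregates. Their median log2 fold change was −2.07, where that of all genes tested was 0.04, and single values ran from −2.80 for *Mad2l1* to −0.68 for *Bub3*. The median ratio of the mean RPM in flat cultures to that in reaggregates was 4.99. In 38 of the 44, every reaggregate lay below every flat culture, which was the case for 11.4% of all genes tested, and in 0 did every reaggregate lie above every flat culture (7.8% of all genes tested). In a bulk library, fewer dividing cells and less of these transcripts per cell cannot be told apart.

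The result held against each kind of flat culture, with a different size. Against flat cultures 1 and 3 alone, 43 of the 44 genes were down-regulated (6.17% of all genes tested), and the median log2 fold change was −2.68. The exception was *Bub3*, at −0.81. Every reaggregate then lay below both flat cultures in all 44 genes, where 20.1% of all genes tested did. Against the de Bruijn cultures alone, 33 were down-regulated (10.5% of all genes tested), with a median of −1.48, and in 38 genes every reaggregate lay below both cultures, where 24.8% of all genes tested did. The same 33 genes were down-regulated against both kinds of flat culture. With consecutive reaggregates averaged to 3 samples, 30 of the 44 were down-regulated (2.53% of all genes tested), and without flat culture 3, 40 were (8.99%). The 14 genes not called after averaging were 5 of condensin and chromosome structure, 3 of centromere and kinetochore, 2 each of the passenger complex and the checkpoint, and 1 each of spindle motors and cytokinesis. Leaving out flat culture 1 left 38 (6.79%), testing all genes without a filter 38 (3.43%), and the replicate number as a block 40 (6.82%). The reaggregates grown with IL-3 alone gave 29 (2.13%) and those without it 32 (2.8%), with 3 libraries in place of 6.

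Summed over the 44 genes, expression was 5772, 2053, 4558 and 2626 RPM in flat cultures 1 to 4, and 880, 895, 743, 833, 889 and 1075 RPM in reaggregates 1 to 6. The flat cultures spread widely and the reaggregates little. The coefficient of variation of a gene had a median of 50.9% over the flat cultures and 17.1% over the reaggregates. Flat culture 1 held the highest value of the flat cultures in 32 genes and flat culture 3 in the other 12, whereas flat culture 2 held the lowest in 35.

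**Figure D1:**
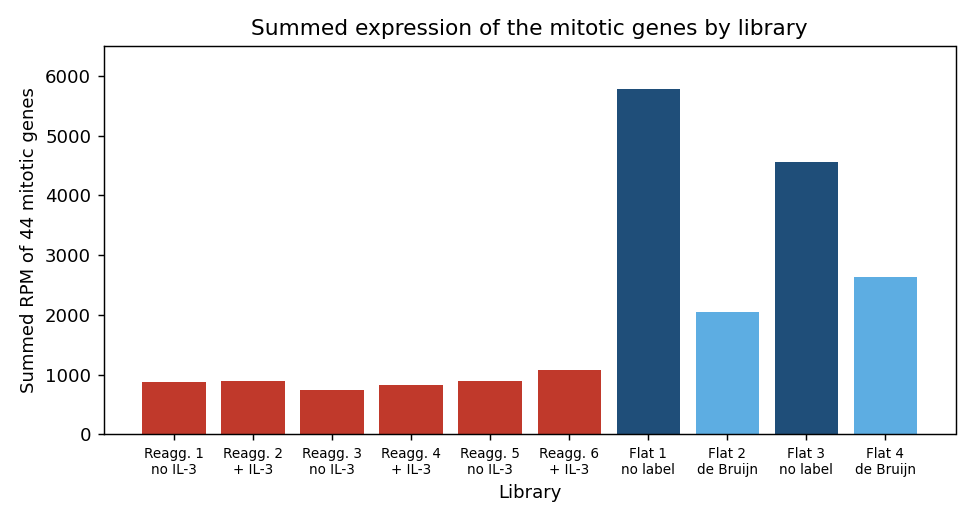
Summed expression of the 44 mitotic genes (RPM, vertical axis from 0) in each of the 10 libraries; bars are single libraries, red for reaggregates, dark blue for flat cultures 1 and 3 and light blue for the de Bruijn flat cultures 2 and 4. The reaggregates lie between 743 and 1075 RPM, and the flat cultures between 2053 and 5772 RPM.

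Cdk1 and its cyclins, which trigger entry into mitosis, were all down-regulated (4 of 4, median log2 fold change −2.35), and groups did not overlap for any of them. *Ccnb1* (chromosome 13, 101548605 to 101556525) was at 151, 56.9, 89.0 and 64.6 RPM in flat cultures 1 to 4, and in the reaggregates its lowest value was 7.30, its median 13.2 and its highest 19.1 RPM. Every flat culture exceeded every reaggregate of this B-type cyclin, with flat culture 1 highest. The difference exceeded the spread between libraries (log2 fold change −2.70, SE 0.310, limma adjusted p = 0.000232). The two-sided exact permutation p was 0.00476, which is as small as 6 against 4 libraries can give. That test takes all 6 reaggregates as separate libraries, although consecutive ones resembled each other. *Ccna2* (chromosome 3, 36463788 to 36471072) reached 148, 69.8, 109 and 78.3 RPM in flat cultures 1 to 4, against a lowest value of 16.2, a median of 18.1 and a highest of 27.1 RPM in the reaggregates. The groups were again separate, and reaggregate 6 lay above the other reaggregates (log2 fold change −2.32, SE 0.223, limma adjusted p = 9.19e-05). *Cdk1* itself averaged 186 ± 85.7 RPM in flat cultures and 34.3 ± 9.52 RPM in reaggregates (SD of 4 and 6 libraries), a log2 fold change of −2.35, and *Ccnb2* 56.1 ± 16.7 and 10.3 ± 1.5 RPM, one of −2.35.

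Both kinases that mature the centrosomes and shape the spindle poles were down-regulated. *Aurka* (chromosome 2, 172181690 to 172196035) was at 127, 45.9, 70.3 and 50.8 RPM in flat cultures 1 to 4, and in the reaggregates its lowest value was 7.94, its median 9.12 and its highest 12.2 RPM. For this kinase, Aurora A, the lowest flat culture exceeded the highest reaggregate by a wide gap (log2 fold change −2.75, SE 0.264, limma adjusted p = 9.19e-05). The values of *Plk1* (chromosome 7, 129302951 to 129313389) were 52.3, 44.1, 65.9 and 27.4 RPM in flat cultures 1 to 4, and ran from 7.49 over a median of 8.78 to 10.7 RPM in the reaggregates. For Polo-like kinase 1 flat culture 3 was highest and flat culture 4 lowest of the flat cultures, and the groups did not overlap (log2 fold change −2.28, SE 0.231, limma adjusted p = 0.000131).

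The chromosomal passenger complex, in which Aurora B corrects faulty attachments and acts in cytokinesis, had all 4 subunits down-regulated (median log2 fold change −1.88), 3 of them without overlap. *Birc5* (chromosome 11, 117710565 to 117717069) was at 163, 38.3, 90.5 and 66.2 RPM in flat cultures 1 to 4, and in the reaggregates its lowest value was 10.4, its median 13.3 and its highest 21.0 RPM. Flat culture 1 stood highest for this subunit, survivin, and all flat cultures lay above all reaggregates (log2 fold change −2.46, SE 0.339, limma adjusted p = 0.000659). *Cdca8* (chromosome 4, 124595709 to 124616555) reached 54.0, 13.8, 51.5 and 13.4 RPM in flat cultures 1 to 4, against 10.5, 9.53, 7.84, 7.04, 13.6 and 14.9 RPM in reaggregates 1 to 6. For *Cdca8*, which encodes borealin, flat cultures 1 and 3 lay far above the reaggregates, whereas both de Bruijn cultures lay within their range. It was down-regulated over all libraries (log2 fold change −1.36, SE 0.423, limma adjusted p = 0.0331; two-sided exact permutation p = 0.0238). Its log2 fold change was −2.31 against flat cultures 1 and 3 and −0.40 against the de Bruijn cultures, and without flat culture 3 it was no longer called (limma adjusted p = 0.0674). With consecutive reaggregates averaged, *Cdca8* and *Incenp* were not called (limma adjusted p = 0.167 and 0.0579). *Aurkb* had a log2 fold change of −2.24, and *Incenp*, the scaffold of the complex, one of −1.52. Against the de Bruijn cultures alone *Incenp* was not called (−0.93, against −2.10 for flat cultures 1 and 3).

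In the spindle checkpoint 4 of 5 genes were down-regulated (median log2 fold change −1.94), and this group held both ends of the range over all 44 genes. *Mad2l1* (chromosome 6, 66485384 to 66491027) was at 135, 48.9, 52.2 and 131 RPM in flat cultures 1 to 4, and in the reaggregates its lowest value was 9.60, its median 11.5 and its highest 14.3 RPM. Mad2, its product, inhibits Cdc20 at unattached kinetochores. Flat cultures 1 and 4 were high and 2 and 3 low, an order not tied to the source label, and all 4 exceeded every reaggregate (log2 fold change −2.80, SE 0.300, limma adjusted p = 0.000162). *Bub3* (chromosome 7, 138703905 to 138715412) reached 163, 105, 99.4 and 107 RPM in flat cultures 1 to 4, against a lowest value of 63.3, a median of 70.5 and a highest of 85.3 RPM in the reaggregates. *Bub3*, whose product brings Bub1 and BubR1 to kinetochores, had the smallest fold change of the 44. Its groups did not overlap, but the difference was below a fold change of 2 and it was not called (log2 fold change −0.68, SE 0.161, limma adjusted p = 0.0104; two-sided exact permutation p = 0.00476). *Bub1* (−2.15), *Bub1b* (−1.58) and the kinase gene *Ttk* (−1.94) were down-regulated without overlap, though *Bub1b* was not called with consecutive reaggregates averaged (limma adjusted p = 0.0687). Nor was *Bub1b* called against the de Bruijn cultures alone (−0.85, against −2.32 for flat cultures 1 and 3).

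The APC/C activator *Cdc20*, the ubiquitin-conjugating enzyme gene *Ube2c* and the securin gene *Pttg1* were down-regulated without overlap (3 of 3, median log2 fold change −2.27). *Pttg1* (chromosome 11, 43233752 to 43239753) was at 76.1, 36.6, 57.0 and 34.6 RPM in flat cultures 1 to 4, and in the reaggregates its lowest value was 6.21, its median 8.13 and its highest 10.3 RPM. Securin restrains separase until anaphase, and its transcript was lower in every reaggregate than in every flat culture (log2 fold change −2.54, SE 0.243, limma adjusted p = 9.19e-05). The values of *Cdc20* (chromosome 4, 118105506 to 118109957) were 175, 47.4, 126 and 53.6 RPM in flat cultures 1 to 4, and ran from 13.6 over a median of 18.5 to 24.0 RPM in the reaggregates. Flat cultures 1 and 3 were high for *Cdc20*, and both de Bruijn cultures, though lower, still exceeded the reaggregates (log2 fold change −2.19, SE 0.339, limma adjusted p = 0.00124).

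All 7 centromere and kinetochore genes were down-regulated without overlap (median log2 fold change −2.23). *Spc25* (chromosome 2, 69031952 to 69044251) was at 86.9, 40.2, 50.2 and 67.5 RPM in flat cultures 1 to 4, and in the reaggregates its lowest value was 7.08, its median 8.53 and its highest 11.9 RPM. This subunit of the Ndc80 complex, which holds microtubules, had well separated groups (log2 fold change −2.67, SE 0.226, limma adjusted p = 5.95e-05). *Cenpe* (chromosome 3, 134875527 to 134936504) reached 46.4, 22.1, 81.1 and 37.5 RPM in flat cultures 1 to 4, against a lowest value of 9.98, a median of 11.8 and a highest of 14.4 RPM in the reaggregates. *Cenpe*, a kinetochore motor, changed least in this group, with flat culture 3 highest and the groups still apart (log2 fold change −1.77, SE 0.290, limma adjusted p = 0.00163). Its log2 fold change was −2.31 against flat cultures 1 and 3 and −1.24 against the de Bruijn cultures. The other Ndc80 subunits fell similarly, with log2 fold changes of −2.07 for *Ndc80*, −2.41 for *Nuf2* and −2.23 for *Spc24*. *Cenpa*, the histone variant that marks centromeres, had one of −2.28 and *Cenpf* one of −1.84. Averaging consecutive reaggregates ended the calls of *Ndc80*, *Spc24* and *Cenpf* (limma adjusted p = 0.0514, 0.0514 and 0.0729).

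Spindle motors and microtubule proteins were down-regulated in 6 of 6 cases without overlap (median log2 fold change −1.95). *Kif2c* (chromosome 4, 116832244 to 116855244) was at 49.5, 22.1, 47.5 and 20.4 RPM in flat cultures 1 to 4, and in the reaggregates its lowest value was 5.86, its median 6.28 and its highest 7.12 RPM. The reaggregates differed little among themselves for this microtubule depolymerase, and both de Bruijn cultures lay between them and flat cultures 1 and 3 (log2 fold change −2.26, SE 0.265, limma adjusted p = 0.000258). *Tpx2* (chromosome 2, 152673700 to 152721057) reached 176, 95.3, 191 and 89.8 RPM in flat cultures 1 to 4, against a lowest value of 29.8, a median of 37.0 and a highest of 45.8 RPM in the reaggregates. *Tpx2*, whose product activates Aurora A on the spindle, showed the same split of the libraries (log2 fold change −1.79, SE 0.231, limma adjusted p = 0.000434). *Kif11*, the motor that separates spindle poles, had a log2 fold change of −2.08. Those of *Kif4*, *Nusap1* and *Kif22* were −1.98, −1.92 and −1.80, and *Nusap1* was not called after averaging (limma adjusted p = 0.0837) or against the de Bruijn cultures alone (−0.95, against −2.90 for flat cultures 1 and 3).

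Of the genes of the central spindle and cytokinesis 6 of 6 were down-regulated (median log2 fold change −2.16), 5 of them without overlap. *Anln* (chromosome 9, 22135658 to 22193650) was at 302, 143, 235 and 163 RPM in flat cultures 1 to 4, and in the reaggregates its lowest value was 17.4, its median 38.2 and its highest 57.9 RPM. Anillin, its product, organizes the contractile ring. Reaggregates 3 and 4 were lowest and the groups were separate (log2 fold change −2.59, SE 0.332, limma adjusted p = 0.000412). *Racgap1* (chromosome 15, 99450927 to 99482087) reached 376, 70.3, 222 and 79.0 RPM in flat cultures 1 to 4, against a lowest value of 25.2, a median of 48.0 and a highest of 75.8 RPM in the reaggregates. The highest reaggregate, number 6, exceeded flat culture 2, so the groups overlapped. *Racgap1*, a subunit of centralspindlin, was down-regulated over all libraries (log2 fold change −1.67, SE 0.464, limma adjusted p = 0.0208; two-sided exact permutation p = 0.00952). Against flat cultures 1 and 3 its log2 fold change was −2.64, and against the de Bruijn cultures it was −0.69 and not called. Nor was it called with consecutive reaggregates averaged (limma adjusted p = 0.125). *Kif23*, the other subunit of centralspindlin, had one of −1.82. *Ect2*, which activates RhoA at the cell equator, had one of −2.33, *Prc1* one of −1.98 and *Kif20a* one of −2.34.

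Condensin and chromosome structure genes changed least (6 of 7 down-regulated, median log2 fold change −1.57), and only 3 of them had groups without overlap. *Ncapg* (chromosome 5, 46061161 to 46091783) was at 59.0, 23.7, 44.3 and 29.3 RPM in flat cultures 1 to 4, and in the reaggregates its lowest value was 6.51, its median 8.40 and its highest 10.5 RPM. This condensin I subunit was lower in every reaggregate than in every flat culture (log2 fold change −2.06, SE 0.254, limma adjusted p = 0.000323). *Ncaph* (chromosome 2, 126929545 to 126959690) reached 70.0, 22, 75.9 and 22.1 RPM in flat cultures 1 to 4, against a lowest value of 16.5, a median of 17.2 and a highest of 26.8 RPM in the reaggregates. *Ncaph*, which encodes another subunit of the same complex, was low in both de Bruijn cultures, which reaggregates 3 and 4 exceeded. It missed the threshold over all libraries (log2 fold change −1.04, SE 0.364, limma adjusted p = 0.0501; two-sided exact permutation p = 0.0286). Against flat cultures 1 and 3 alone it was down-regulated (log2 fold change −1.89, limma adjusted p = 0.000870), and against the de Bruijn cultures its log2 fold change was −0.19 (limma adjusted p = 0.479). *Smc2* (−1.52), *Smc4* (−1.11) and the proliferation marker *Mki67* (−1.57) were down-regulated with groups that overlapped, in each case because flat culture 2 lay among the reaggregates. *Top2a* (−1.75) and *Ncapd2* (−1.72) were down-regulated without overlap. With consecutive reaggregates averaged, 2 of the 7 genes, *Ncapg* and *Ncapd2*, were still down-regulated, and *Smc2*, *Smc4*, *Top2a* and *Mki67* no longer were (limma adjusted p = 0.104, 0.183, 0.0613 and 0.154). Against the de Bruijn cultures alone the same 2 were down-regulated, and against flat cultures 1 and 3 alone all 7 were.

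**Figure D2:**
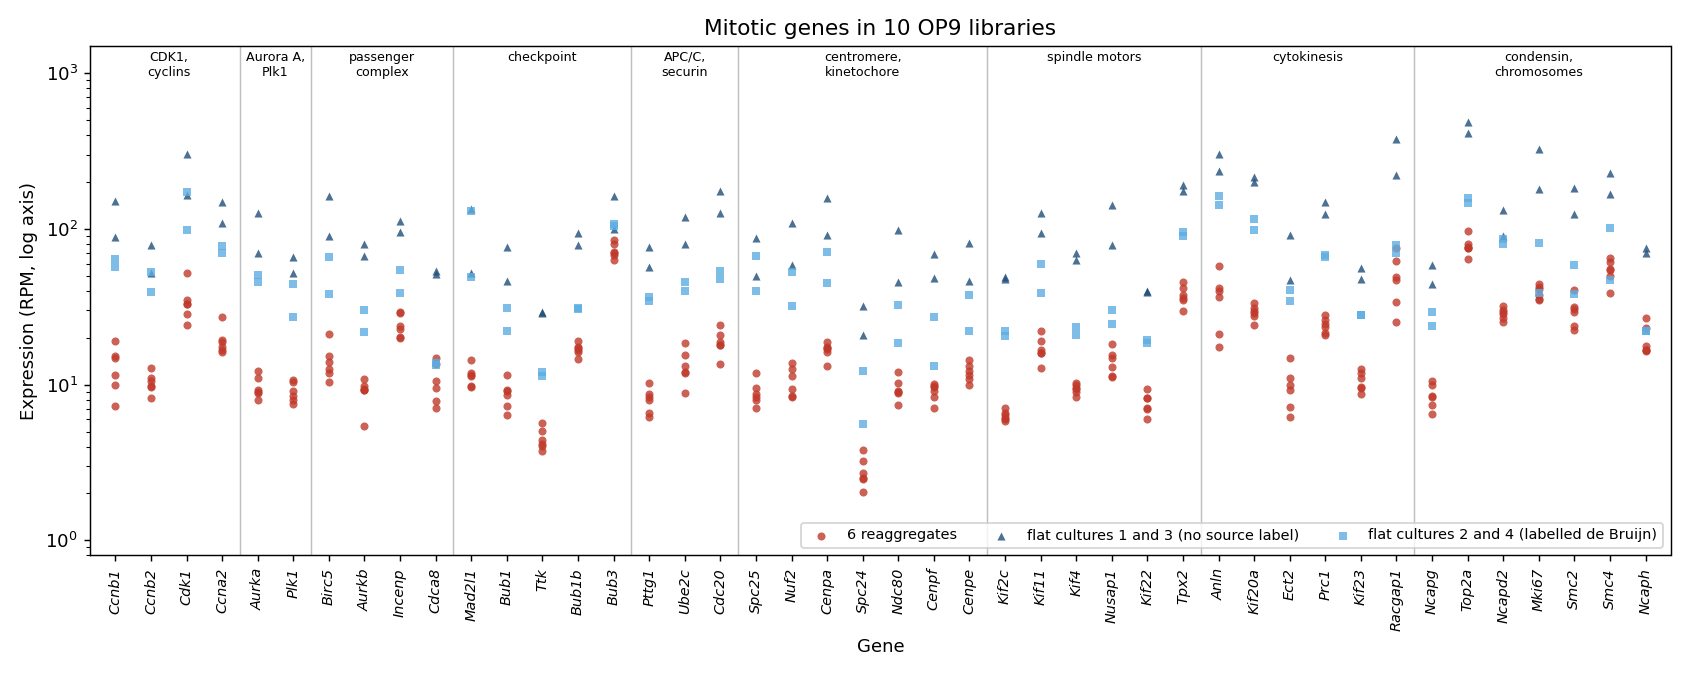
Expression of the 44 mitotic genes (RPM, log axis) in 10 libraries, by role and, within a role, from the most to the least negative fold change; points are single libraries, red for reaggregates, dark triangles for flat cultures 1 and 3 and light squares for the de Bruijn cultures 2 and 4. Groups overlap in 6 genes, and dark triangles lie above every red point in all 44.

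Levels were also compared between genes per length, as RPM per kb of all annotated exons of a gene. In flat cultures *Bub3* (57.7 ± 14.5 RPM per kb, SD, n = 4), *Cdk1* (53.9 ± 24.9) and *Cdc20* (53.8 ± 32.7) were highest, a difference among them within their spread, and *Cenpf* (3.48 ± 2.17) was lowest. In reaggregates *Bub3*, at 35.5 ± 3.95 RPM per kb (SD, n = 6), exceeded the next genes, *Smc4* (10.8 ± 1.84), *Cdc20* (10.1 ± 1.84) and *Cdk1* (9.95 ± 2.76). Subunits of the Ndc80 complex were in flat cultures at 24.8 ± 12.9 for *Nuf2*, 22.1 ± 15.7 for *Ndc80*, 19.2 ± 6.43 for *Spc25* and 13 ± 8.33 RPM per kb for *Spc24*. In reaggregates the level per length was 4.15 ± 0.879, 4.28 ± 0.699, 2.80 ± 0.526 and 2.06 ± 0.462 RPM per kb in the same order. Subunits of other complexes lay further apart in flat cultures. The passenger complex ran from 6.41 ± 4.37 for *Cdca8* to 26.2 ± 15.7 RPM per kb for *Birc5*. Condensin I ran from 5.53 ± 2.25 for *Ncapg* to 27.0 ± 15.7 RPM per kb for *Smc4*. Exon lengths were taken from a later gene annotation than the one the authors used, so these levels are approximate.

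Other genes of mitosis did not all share this change. Of 120 further mitotic genes, none of them among the 44, 65 were down-regulated and 0 up-regulated, with a median log2 fold change of −1.28. For comparison with this and the following lists, 6.53% of all genes tested were down-regulated and 7.32% up-regulated. These lists too were chosen with earlier results of these data known. Counts differed between kinds of gene product. Among other centromere and kinetochore genes 21 of 31 were down-regulated, with *Sgol1* (−2.45) and *Kntc1* (−2.41) changed most. Among other spindle and centrosome genes 18 of 29 were, led by *Hmmr* (−2.56) and *Nek2* (−2.29). Among other cytokinesis genes 7 of 8 were, led by *Cep55* (−2.94), required for the final cut between daughter cells, and *Cit* (−1.98). *Rhoa*, which acts in many processes besides division, was the 1 not called (−0.75, limma adjusted p = 0.0153).

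Among the subunits and regulators of the APC/C 2 of 15 were down-regulated, where 6.53% of all genes tested were. These 2 were the inhibitor gene *Fbxo5* (−2.19) and the ubiquitin-conjugating enzyme gene *Ube2s* (−1.21). The other 13, including *Cdc16*, *Cdc23*, *Cdc27* and the activator gene *Fzr1*, had log2 fold changes between −0.50 and 0.34. Of cohesin, separase and condensin II genes, 4 of 15 were down-regulated, namely *Cdca5* (−2.35), *Esco2* (−1.87), the separase gene *Espl1* (−1.60) and *Ncapg2* (−1.50). The 5 cohesin subunit genes *Smc1a*, *Smc3*, *Rad21*, *Stag1* and *Stag2* were not called, with log2 fold changes between −0.10 and 0.62. Among G2/M regulators 13 of 22 were down-regulated, with *Ccnf* (−2.75) and *Pbk* (−2.41) changed most. *Foxm1*, which encodes a transcription factor of mitotic genes, was down-regulated (−1.80), whereas the 4 subunits of the MuvB complex in the list, *Lin9*, *Lin37*, *Lin52* and *Lin54*, were not called.

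Genes of other cell cycle stages were set beside these. Of 35 DNA replication genes 24 were down-regulated, with a median log2 fold change of −1.24. Among them was *Rrm2* (−3.14), which encodes a subunit of ribonucleotide reductase. Of the CDK inhibitors, D cyclins and retinoblastoma family genes 3 of 11 tested were down-regulated, namely *Ccnd1* (−2.64), *Ccnd2* (−1.78) and *Cdkn2d* (−1.31), and 0 were up-regulated. Against flat cultures 1 and 3 alone *Ccnd2* was not called (log2 fold change −0.72), and against the de Bruijn cultures alone *Cdkn2d* was not (−0.84). *Ccnd1*, the most abundant of them in flat cultures, was at 880, 1960, 1090 and 1810 RPM in flat cultures 1 to 4 and between 180 and 276 RPM in reaggregates. It was higher in the de Bruijn cultures, unlike the mitotic genes. *Cdkn1a*, the gene for the inhibitor p21, was at 553, 473, 573 and 322 RPM in flat cultures 1 to 4 and between 616 and 1070 RPM in reaggregates. Every reaggregate exceeded every flat culture, but the fold change was below 2 and it was not called (log2 fold change 0.83, SE 0.222, limma adjusted p = 0.0179).

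**Figure D3:**
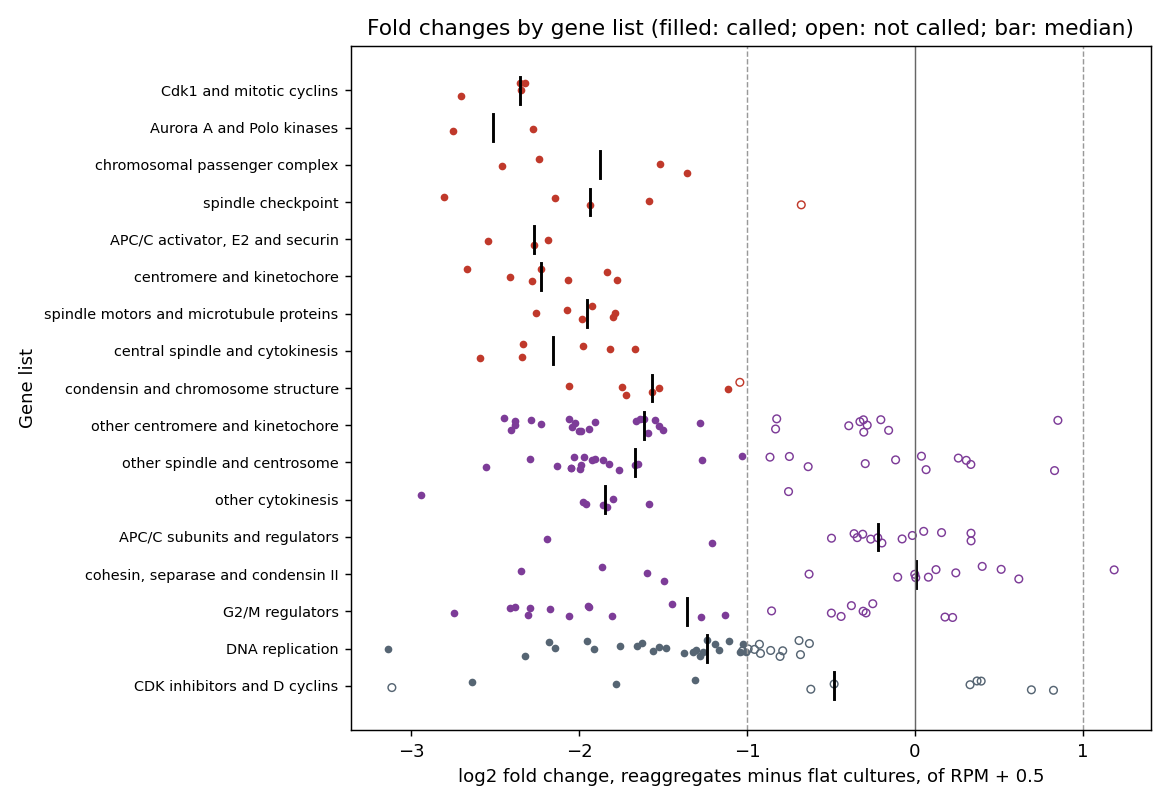
Log2 fold change of RPM + 0.5, reaggregates minus flat cultures (horizontal axis), of single genes in each list (vertical axis), red for the 44 mitotic genes by role, purple for 120 other mitotic genes and grey for comparison lists; filled points were called, open points were not, black bars are medians and dashed lines mark a fold change of 2. All 9 roles have medians between −2.51 and −1.57, and open points in the lists of the APC/C and of cohesin lie between −0.63 and 1.19.

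Markers of the stroma and of other cell types were measured in the same libraries. *Col1a1* and *Col1a2* were abundant in all libraries, at no less than 698 and 1190 RPM. Of the 9 stromal genes tested 5 were up-regulated, with *Col1a1* (1.93) and *Col1a2* (1.83) changed most, and *Kitl* (−1.01) was down-regulated. *Thy1*, another stromal marker, was at 3 reads or fewer in all libraries. The 5 blood markers summed to no more than 1.98 RPM in any library, with *Csf1r* most abundant and *Ptprc* and *Cd3e* listed at 0 in all. The 6 endothelial markers summed to no more than 1.23 RPM, with *Pecam1* most abundant, and the 4 epithelial markers to no more than 0.479 RPM. Of 6 adipocyte genes 3 were down-regulated, *Fabp4* (−2.37), *Pparg* (−1.67) and *Cebpa* (−1.36), and against flat cultures 1 and 3 alone none of these 3 was called. The summed level of these 6 genes was 370, 1385, 528 and 1457 RPM in flat cultures 1 to 4 and between 255 and 691 RPM in reaggregates, with *Lpl* most abundant. Adipocyte genes were thus high in the de Bruijn cultures, where mitotic genes were low among flat cultures, and their part in the result was not tested.

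Within the flat cultures, mitotic genes were lower in the de Bruijn cultures than in flat cultures 1 and 3. All 44 had a lower mean log2 value there, with a median log2 difference of −1.12, where that of all genes tested was −0.17. In 39 genes both of flat cultures 1 and 3 exceeded both de Bruijn cultures, as they did in 34.1% of all genes tested. By the same thresholds 8 of the 44 were lower in the de Bruijn cultures and 0 higher, where 3.87% and 1.82% of all genes tested were. With 2 libraries against 2, 35 of the 44 had a limma p of no more than 0.05 before adjustment, as did 23.0% of all genes tested. The 8 genes were *Cdca8*, *Bub1b*, *Cdc20*, *Kif4*, *Nusap1*, *Racgap1*, *Ncaph* and *Top2a*. *Top2a*, which encodes the topoisomerase that untangles chromosomes, was at 489, 147, 412 and 158 RPM in flat cultures 1 to 4, high in 1 and 3 and low in 2 and 4 (log2 difference −1.56, SE 0.281, limma adjusted p = 0.0432). *Mki67* had the largest difference, −2.10, with values of 181, 39.0, 328 and 81.1 RPM, and was not called (limma adjusted p = 0.0721). *Mad2l1* had the smallest, −0.07. Leaving out any 1 of the flat cultures left 0 of these calls (0.0% of all genes tested), with the lone library then assumed to vary like the others. Median-ratio scaling left 3 (3.73%), testing all genes without a filter 2 (0.409%) and a pseudocount of 0.1 left 6 (3.79%). The count was 8 with a pseudocount of 1 (3.51%) and 10 after quantile normalization (4.72%).

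IL-3, a cytokine used in cultures of hematopoietic precursors, was compared within the reaggregates, 3 against 3. Of the 44 genes 0 were called, as were 0.0% of all genes tested in either direction, and 0 of the 44 had a limma p of no more than 0.05 before adjustment, where 68 of all 16933 genes did. The median log2 difference of the 44, with minus without IL-3, was 0.14, where that of all genes was 0.01, and single values ran from −0.07 to 0.36. With consecutive reaggregates as a block, 7 of the 44 and 564 of all genes (3.33%) reached it, and again 0 were called (0.0% of all genes). In 20 genes the culture with IL-3 was higher in all 3 consecutive pairs (12.7% of all genes tested), and in 0 it was lower in all 3 (8.78%). Of the pairs, reaggregate 2 exceeded 1 in 25 genes, 4 exceeded 3 in 33 and 6 exceeded 5 in 38. With each reaggregate left out in turn, which breaks 1 pair, the median difference lay between 0.03 (without reaggregate 6) and 0.24 (without reaggregate 4). In simulated data the IL-3 fit without a block called 140 of 200 genes shifted by a log2 difference of 2, so changes of this size can be missed. No single gene passed the thresholds in either fit, and whether the small differences within pairs come with IL-3 or with these libraries cannot be told apart.

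Promoters of the genes were searched for known motifs. Of these motifs 1 is named after cell cycle genes, so its share among mitotic genes is not independent of how they were chosen. Promoter sequences of 300 bases, from 250 before to 50 after the transcription start, were taken from RefSeq (GRCm38.p6) and matched 37 of the 44 genes, with 40 windows. *Ccna2*, *Aurkb*, *Incenp*, *Spc24*, *Tpx2*, *Smc4* and *Kif20a* had no entry. Both strands were searched for the cell cycle genes homology region (CHR, TTTGAA), the CCAAT box (CCAAT) that NF-Y binds, and E2F-type sites (TTTCGCGC, TTTGGCGC or TTTCCCGC). The CHR was found in 31 of the 40 windows (77.5%), against 17.9% of all 32841 promoter windows. The CCAAT box was also found in 31 (77.5%), against 37.4%, and both together in 28 (70.0%), against 6.95%. E2F-type sites were found in 3 windows (7.5%), against 1.85%. A pair of CCAAT boxes on the same strand whose starts lie 31 to 33 bases apart, a spacing chosen after the sequences were seen, was found in 6 windows (15%), against 0.795%. These were the windows of *Ccnb1*, *Ccnb2*, *Cdk1*, *Aurka*, *Ube2c* and *Spc25*.

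The same letters were sought in the 120 other mitotic genes. In windows of the down-regulated genes among them, the CHR was found in 32 of 57 (56.1%), and in windows of those not called in 10 of 49 (20.4%). The CCAAT box was found in 39 of 57 (68.4%) and in 24 of 49 (49.0%). The spaced pair, chosen on the windows of the 44 genes, was found in 3 of 57 (5.26%) and in 1 of 49 (2.04%). Within the 44 genes, neither the CHR nor the CCAAT box marked those that fell furthest. The median log2 fold change was −2.02 for the 28 genes with a CHR and −2.41 for the 9 without, counted over genes with a promoter window. For the CCAAT box it was −1.98 for 28 genes with it and −2.41 for 9 without. The 6 genes with the spaced pair had log2 fold changes between −2.75 for *Aurka* and −2.27 for *Ube2c*. The median of all 44 was −2.07, and the spacing was chosen on windows of these genes.

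Promoter stretches that end just before the transcription start are shown for 3 genes that fell strongly and hold these letters, with motifs in capitals, given 5′ to 3′ on the strand of the gene. The sequences are from RefSeq, and the positions are those of their exact match in NCBIM37, the build of the data. That of *Cdc20* (chr4:118109949-118110028, minus strand) holds a CHR between CCAAT boxes, and its last 9 bases fall within an exon of *Cdc20* in the later annotation. Those of *Aurka* (chr2:172196071-172196150, minus strand) and *Spc25* (chr2:69044271-69044350, minus strand) lie outside annotated exons and hold CCAAT boxes 32 bases apart. Their CHR matches lie after the transcription start, 33 and 25 bases in.
Cdc20: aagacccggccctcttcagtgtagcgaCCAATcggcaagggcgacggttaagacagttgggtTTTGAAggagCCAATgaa
Aurka: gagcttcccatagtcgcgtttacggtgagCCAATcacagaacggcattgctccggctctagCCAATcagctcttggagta
Spc25: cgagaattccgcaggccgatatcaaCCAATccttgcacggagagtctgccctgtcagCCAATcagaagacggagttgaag

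*Ncapg*, of condensin I, is shown for a CCAAT box far from its CHR (chr5:46060973-46061163, plus strand; the last 3 bases are exonic in the later annotation). An E2F-type site lies 32 bases after its transcription start. *Bub3*, which changed least of the 44 genes, carries a CHR between CCAAT boxes as *Cdc20* does (chr7:138703795-138703883, plus strand, upstream of the first of its 2 listed starts and outside exons).
Ncapg: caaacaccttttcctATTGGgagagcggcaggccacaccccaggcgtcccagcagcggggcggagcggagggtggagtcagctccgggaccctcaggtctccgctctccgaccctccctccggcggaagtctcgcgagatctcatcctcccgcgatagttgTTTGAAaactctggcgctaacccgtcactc
Bub3: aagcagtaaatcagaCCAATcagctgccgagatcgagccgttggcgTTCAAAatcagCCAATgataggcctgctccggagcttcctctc

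For contrast, *Mad2l1* (chr6:66485135-66485214, plus strand), which fell furthest, and *Ncaph* (chr2:126959691-126959770, minus strand), which was not called, hold none of these motifs in their 300 bases, so that nothing is capitalized. Both stretches lie outside annotated exons. A match is a description of the letters and does not show that a factor binds there.
Mad2l1: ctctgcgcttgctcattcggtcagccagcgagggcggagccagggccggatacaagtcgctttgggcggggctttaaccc
Ncaph: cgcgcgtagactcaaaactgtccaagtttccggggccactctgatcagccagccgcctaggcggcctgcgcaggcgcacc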

How the data were processed

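The authors sequenced total RNA, aligned reads with TopHat 1.2.0 to NCBIM37 (mm9), assigned them to genes of Ensembl 58 and shared out those with several matches. The authors deposited an RPM value for every gene in each library. Of the values from about 1 read up to 10 RPM, between 73.6% and 76.0% lay near a whole multiple of 1 read. Near meant within 0.05 read or 1%, whichever was larger, and at the upper end of this range 1% passes any value. Read counts were therefore not recovered and no test on counts was run. Near-identical gene copies are uncertain. Also deposited by the authors were a log2 fold change and an adjusted p-value for reaggregates against flat cultures, computed with DESeq, which were not used. All columns of RPM were matched to a library, leaving 0 unmatched.

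Groups, IL-3 and cell source came from the labels. The fits used limma 3.58.1 (R 4.3.3) on log2(RPM + 0.5), a linear model with group as its only term, and variances moderated by empirical Bayes along a trend. Where RPM is low, such fold changes come out too small. For single genes an exact permutation test went through all 210 splits into 6 and 4 libraries. The fit was tested on simulated data with the means and spread of the genes, where 200 of 16933 genes were shifted by a log2 difference of 2. Of these 175 were called in the comparison of cultures, with 8 false calls, and 140 in that of IL-3, with 6. Values in every flat culture were given for the genes with the most and the least negative fold change in each role and for those not called. For the reaggregates the lowest value, the median and the highest were given, and for *Cdca8* every value. From the other lists the genes with the largest changes among those called were named in each direction. Further genes named were chosen after their values were seen. A result of 1 gene that this rule would name is not reported here. Roles, lists and members were chosen with earlier results of these data known, and lists were described by counts and medians without a test. Of 124 other mitotic genes listed, 120 were matched; *Ska2*, *Ska3*, *Mis18a* and *Bora* were not, nor were the blood markers *Spi1* and *Hbb-b1*. Alternatives covered the pseudocount (0.1 and 1), the filter, scaling between libraries, the variance trend, a block, averaged reaggregates, subsets of libraries and leaving out each library in turn. Coordinates and exon lengths came from GENCODE M1 on the same genome. Tables and figures were made with Python 3.11.15 and matplotlib 3.10.9.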

Additional observations from a re-analysis of the deposited data

Results flagged for a closer look

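Each of the 44 genes was screened for a library far from the rest of its group, in reaggregates and in flat cultures apart. Of 88 groups 3 held such a library, where chance gives about 1 in 20, or 4.4. *Ccna2* was at 27.1 RPM in reaggregate 6, with the nearest other reaggregate at 19.4 RPM. *Aurkb* was at 5.44 RPM in reaggregate 3, below the next lowest at 9.22 RPM. *Bub3* was at 163 RPM in flat culture 1, above the next highest at 107 RPM. The cause was not tested.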

How the results depend on the processing

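Over 23 other settings, single-gene log2 fold changes of the 44 genes kept their sign in all 1012 comparisons, and 939 stayed on the same side of the thresholds. In 67 the call was lost and in 6 it was gained. Between 29 and 43 of the 44 genes were down-regulated under each setting. The lowest count, 29, came with only the reaggregates grown with IL-3; those without IL-3 gave 32, leaving out the filter 38 (3.43% of all genes), and leaving out each library in turn 38 to 43. Smaller groups or more genes tested accompany these lower counts.

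The number of down-regulated genes over all genes was 429 with consecutive reaggregates averaged, 1775 against the de Bruijn cultures, 360 with and 474 without IL-3, and between 815 and 1522 with each library left out. That of up-regulated genes was 312, 2579, 277 and 345 in the same order, 627 against flat cultures 1 and 3, and between 766 (without flat culture 4) and 2121 (without flat culture 3). Between the kinds of flat culture, 3 of the 44 genes were called after median-ratio scaling, 10 after quantile normalization, 6 and 8 with pseudocounts of 0.1 and 1, 2 without the filter and 0 with any flat culture left out. The causes were not tested.

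With the replicate number as a block, 40 of the 44 genes and 1885 genes up-regulated over all genes were called. Same-numbered libraries deviated with correlations of −0.04, −0.21, 0.07 and 0.15, which shows no pairing by number. The check cannot exclude one, because flat cultures split by label and reaggregates by consecutive pairs. A depth of 7.35 M reads limits what can be seen below about 0.408 RPM, under all values of the 44 genes.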

Other observations

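Some genes outside mitosis, chosen after their values were seen, separated the flat cultures by label. *Ccnd2*, a D cyclin gene, was at 94.6, 457, 122 and 482 RPM in flat cultures 1 to 4 and between 62.4 and 69.6 RPM in reaggregates. *Cdkn2b*, the gene for the inhibitor p15, was at 155, 59.3, 141 and 50.9 RPM in flat cultures 1 to 4, low in the de Bruijn cultures, and between 66.4 and 192 RPM in reaggregates. The chemokine gene *Cxcl12* was at 125, 4560, 662 and 3990 RPM, high in the de Bruijn cultures, and between 546 and 2300 RPM in reaggregates. The cause of these differences was not tested.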
